A study of Homo sapiens with 8 samples.

Results

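CCN1 and the YAP-TEAD pathway genes around it were described in metastatic lymph nodes of mice bearing human melanoma. The genes were taken by name, 1 probe set per gene, as CCN1, CCN2, ANKRD1, AMOTL2, AJUBA, YAP1, WWTR1, TEAD1 and LATS2. Of these 9 genes, 8 had a named probe set among the 17491 genes measured, and AMOTL2 was not analysed here. Each of the 8 had 1 probe set, so that choosing the brightest probe set of a gene removed nothing. CCN1 was chosen by its difference and p between the groups in these same arrays: it had the smallest p of the 7785 genes whose difference lay below 0, where it ranks 1, so its values are given as a description and without a test.

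All 8 arrays came from BALB/c nude mice, an athymic strain that lacks mature T cells, with SkMel147 tumours under the skin; SkMel147 is a human melanoma line. The vehicle group (4 arrays) received the drinking-water vehicle and the doxycycline group (4 arrays) received doxycycline, which was given to induce Omomyc, a dominant-negative form of MYC, in the tumour cells. Treatment began at about 750 mm3 and nodes were taken 2 days after it. Ages were not given in the sources used here, and neither was whether the inducible line was a single clone. The label calls the arrays biological replicas and names lymph node metastases as the tissue, while the design text of the series speaks of melanomas. Whole nodes were homogenised and hybridised to a human array, so the RNA of mouse host cells and human tumour cells was not separated. How far the human probes read the mouse RNA was not measured. Fewer cells of a type and less RNA per cell cannot be told apart in such a sample. Omomyc itself was not measured here.

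The Hippo pathway is a kinase cascade that restrains growth-promoting transcription. Its LATS kinases phosphorylate the coactivators YAP and TAZ (encoded by YAP1 and WWTR1), which then stay out of the nucleus. When they are free, they enter the nucleus, bind TEAD factors on DNA and switch on genes such as CCN1, CCN2 and ANKRD1. LATS2 and AMOTL2 are targets that feed back on the pathway. CCN1 and CCN2 are secreted matrix-associated proteins that bind integrins and are made by melanoma cells, fibroblasts and vessel cells alike. CCN1 is also an immediate early gene, switched on within a short time of stimulation through the serum response factor SRF.

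CCN1 and TEAD1 promoters were not searched here. Among the other 7 genes, the promoters of the 2 with the most TEAD matches, both targets, are shown, because these are the elements the pathway acts through and because the node values of both genes can be set beside them. Sequences are RefSeq's on GRCh38.p14, 5′ to 3′ on the gene's strand, and cover the 250 bases before the annotated start. Both lie on the minus strand, CCN2 at chr6:131951373-131951622 and ANKRD1 at chr10:90921088-90921337. Capitals mark the TEAD core motif GGAATG, searched on both strands (its reverse complement is CATTCC).
CCN2: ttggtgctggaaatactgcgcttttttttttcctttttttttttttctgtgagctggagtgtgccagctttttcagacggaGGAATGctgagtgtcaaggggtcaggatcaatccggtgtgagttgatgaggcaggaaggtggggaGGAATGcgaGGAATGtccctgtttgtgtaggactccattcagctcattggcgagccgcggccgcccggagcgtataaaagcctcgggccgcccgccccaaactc
ANKRD1: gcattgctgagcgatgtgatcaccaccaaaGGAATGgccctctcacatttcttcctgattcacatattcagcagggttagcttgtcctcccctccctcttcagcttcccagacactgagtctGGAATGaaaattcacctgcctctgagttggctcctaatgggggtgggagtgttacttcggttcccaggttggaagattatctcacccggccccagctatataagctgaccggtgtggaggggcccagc

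The CCN2 promoter held 3 TEAD cores, at bases 169, 104 and 95 before the start, and that of ANKRD1 held 2, at bases 220 and 128 before the start. Over the 300 bases from 250 before to 50 after the start, 7 of the 9 genes had at least 1 window in the table, 10 windows in all. A core was present in 6 of these 10 windows, which belonged to CCN2, ANKRD1, AMOTL2, AJUBA, YAP1 and LATS2. The YAP1 core began 162 bases before the start, that of AJUBA 59 and that of AMOTL2 69, while that of LATS2 began at base 10 after it. Neither WWTR1 window held a core. Of 35116 windows of the same length over all genes in the table, 14.0% held at least 1 core, 1.37% at least 2 and 0.128% at least 3. The AP-1-like pattern TGANTCA, with any base at N and read on both strands, was present in 7.71% of all windows. Among the windows of these genes only that of ANKRD1 held it, as TGATTCA. A match of letters describes the sequence and is not evidence that a factor is bound in these nodes.

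An array stood apart from the rest, and it touches several of these genes. Vehicle replicate 1 correlated with the other 7 arrays at a mean r of 0.941 across genes, which are not independent replicates, whereas the other 7 correlated with each other at 0.972 to 0.983. Its TEAD1 value exceeded the mean of the other 7 arrays by 1.13 on the log2 scale, its CCN1 value by 0.70 and its WWTR1 value by 0.24, while its LATS2 and ANKRD1 values were -0.65 and -0.45 away from that mean. The other 7 include the doxycycline arrays, where CCN1 was lower. Against a mean of 7.31 over the remaining vehicle arrays alone, CCN1 in vehicle replicate 1 read 7.68. Results that rest on this array are given with and without it. The array medians lay between 5.07 and 5.12. All values below are log2 expression values as deposited after RMA, a method that corrects the background, normalises between arrays and summarises the probes of a probe set. Differences are doxycycline minus vehicle. Probes differ in brightness, so levels are not ordered between genes, and the place of a gene among all gene means is given only to mark dim probe sets.

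CCN1 was lower in every doxycycline node than in every vehicle node. The vehicle arrays read 7.68, 7.35, 7.39 and 7.19 (replicates 1 to 4), and the doxycycline arrays read 6.44, 6.88, 6.998 and 6.59. The lowest vehicle value lay 0.19 above the highest doxycycline value, a gap smaller than the range within either group (0.49 with vehicle, 0.56 with doxycycline). The means were 7.40 ± 0.20 (SD, n = 4) and 6.72 ± 0.26 (SD, n = 4). The difference was -0.68 ± 0.16 (SE), with a 95% interval from -1.02 to -0.34, which places the mean level with doxycycline at 62.5% of that with vehicle. CCN1 was chosen by this difference, so the interval is not a test and makes no allowance for that choice. Without vehicle replicate 1 the difference was -0.59, and leaving out any single array gave values that lay between -0.77 and -0.58. Over all 17491 genes, 0 passed at an adjusted p under 0.05 (limma with Benjamini-Hochberg adjustment, 0% called), CCN1 included. At an unadjusted p under 0.05 (limma) there were 665 genes, or 3.80%.

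CCN2, also known as connective tissue growth factor, a matrix-associated protein of the same family, had groups that overlapped. It read 6.84, 6.83, 7.02 and 7.08 with vehicle and 6.93, 6.74, 6.82 and 6.96 with doxycycline. The 2 lowest values were doxycycline arrays and the 2 highest vehicle arrays, with the other 4 intermixed, and the vehicle SD of 0.13 was the smallest among the 8 genes. Its difference was -0.08 ± 0.12 (SE), with a 95% interval from -0.34 to 0.18. Whether the 2 genes differ in response was not tested, since CCN1 was chosen for its difference.

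ANKRD1, a nuclear ankyrin-repeat protein best known from muscle and a standard reporter of YAP activity, read 2.99, 3.37, 3.45 and 3.49 with vehicle and 3.36, 3.72, 3.35 and 3.29 with doxycycline. Vehicle replicate 1 was the lowest of the 8 and doxycycline replicate 2 the highest. The difference was 0.10 ± 0.15 (SE) and turned to -0.01 without vehicle replicate 1. Its mean over the arrays, 3.38, was among the lowest 11.1% of gene means.

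AJUBA, a LIM-domain scaffold that holds LATS kinases inactive at cell junctions, lay between 5.73 and 6.32 with vehicle and between 5.83 and 6.48 with doxycycline. The difference was 0.04 ± 0.17 (SE), and its sign turned without doxycycline replicate 2 (-0.10) and without vehicle replicate 3 (-0.06). LATS2, the kinase that phosphorylates YAP and TAZ, read 5.64, 6.41, 6.15 and 6.10 with vehicle and 6.22, 6.25, 6.74 and 6.18 with doxycycline. It had the largest difference of the 7 genes other than CCN1, 0.27 ± 0.18 (SE, 95% interval -0.12 to 0.66). The LATS2 groups overlapped through vehicle replicate 2, and without vehicle replicate 1 the difference was 0.13.

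The coactivators and their DNA-binding partner showed no separation of the groups. YAP1 lay between 3.32 and 3.93 with vehicle and between 3.49 and 3.85 with doxycycline, a difference of 0.07 ± 0.15 (SE), and its mean was among the lowest 16.9% of gene means. The YAP1 difference turned to -0.03 without vehicle replicate 2 and was 0.18 without vehicle replicate 4. WWTR1, which encodes TAZ, lay between 5.46 and 5.80 with vehicle and between 5.48 and 5.67 with doxycycline. The WWTR1 difference was -0.01 ± 0.12 (SE), with a 95% interval from -0.27 to 0.26. TEAD1 read 6.55, 5.51, 5.03 and 5.46 with vehicle and 5.65, 5.44, 5.37 and 5.50 with doxycycline. The vehicle arrays of TEAD1 spanned both the highest and the lowest of its 8 values, with an SD of 0.65 against 0.12 with doxycycline. Its difference of -0.15 ± 0.25 (SE) turned to 0.16 without vehicle replicate 1.

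**Figure D1:**
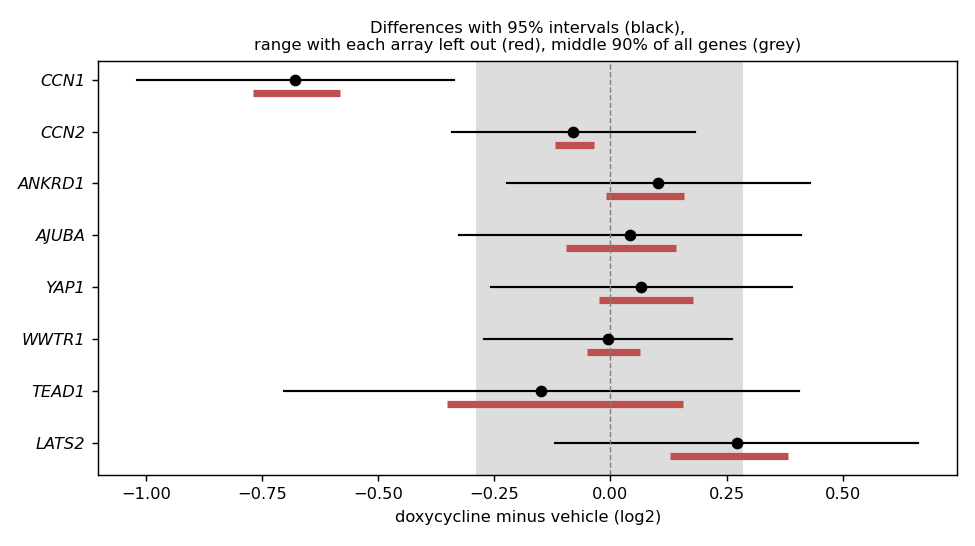
Doxycycline minus vehicle difference on the log2 scale for the 8 measured genes (black points) with its 95% interval from limma (black lines) and the range of the difference on leaving out any single array (red bars); the grey band runs from the 5th to the 95th percentile of all genes (-0.29 to 0.28). CCN1, chosen for its difference, lies at -0.68, and the other 7 lie between -0.15 for TEAD1 and 0.27 for LATS2.

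As a set, the 8 genes were split evenly, with 4 differences below 0 and 4 above 0. Their median difference was 0.02, the same to 2 decimals as the median over all genes (0.02). The groups did not overlap for 1 of the 8, CCN1, where 2.62% of all genes had groups that did not overlap, 0.863% lower and 1.76% higher with doxycycline. Since CCN1 was chosen for this contrast, nothing is read from its count.

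The wider pathway and genes around it were described from 6 lists holding 73 genes, of which 66 were measured. Beside Hippo, TEAD and YAP-TEAD target genes, the lists hold other CCN genes, CCN receptors, and SRF with its cofactors and targets. None of the 66 had a limma adjusted p below 0.05 (0 of 66). At an unadjusted p under 0.05 (limma) there were 3, or 4.55%, against 3.80% of all genes. Of the 3, 2 were higher with doxycycline, where 2.49% of all genes were, and 1 was lower, where 1.31% were. The groups did not overlap for 2 of the 66 genes, or 3.03%, against 2.62% of all genes. With all 8 arrays both shares lay near those of all genes. Without vehicle replicate 1 the unadjusted p was under 0.05 for 8 of the 66 (12.1%), against 4.91% of all genes, and 0 passed after adjustment (limma). These 8 were TEAD3, MRTFA (an SRF cofactor), EGR1 and FHL2, which were lower, and NF2, ITGA6, CCDC80 and CALD1, which were higher. MRTFA, EGR1, FHL2 and CALD1 are from the SRF list and ITGA6 is from the receptor list.

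Upstream kinases and scaffolds of the Hippo cascade were spread around 0. Of 12 measured genes, 7 lay below 0 and 5 above 0, with a median of -0.01, and the groups of all 12 overlapped. NF2, which encodes the tumour suppressor merlin that recruits LATS kinases to the membrane, had the smallest p among the higher genes. It read 5.29, 4.39, 4.78 and 4.39 with vehicle and 4.98, 4.72, 5.37 and 4.95 with doxycycline, a difference of 0.29 ± 0.21 (SE) that became 0.48 without vehicle replicate 1. FRMD6, a merlin-related membrane scaffold, had the smallest p among the lower genes (-0.22 ± 0.16 SE, and -0.15 without vehicle replicate 1).

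The other 3 TEAD genes, whose proteins bind the same DNA motif as TEAD1, each had a mean that was lower with doxycycline, and none passed. TEAD3 read 6.10, 6.48, 6.88 and 6.52 with vehicle and 6.29, 6.14, 6.30 and 6.16 with doxycycline, a difference of -0.27 ± 0.16 (SE). The TEAD3 groups overlapped, and without vehicle replicate 1, the lowest of all 8 TEAD3 values, the difference was -0.40. TEAD2 and TEAD4 differed by -0.20 ± 0.14 (SE) and -0.15 ± 0.19 (SE), with overlapping groups. The TEAD4 difference was -0.28 without vehicle replicate 1 or without doxycycline replicate 2 and -0.04 without vehicle replicate 3, that of TEAD2 was -0.30 without vehicle replicate 2 and -0.12 without vehicle replicate 4, and that of TEAD3 was -0.14 without vehicle replicate 3. The sign of all 3 stayed below 0 with centred medians, quantile or cyclic loess normalisation and with each array left out. The VGLL proteins compete with or replace YAP on TEAD factors. VGLL3 differed by 0.29 ± 0.19 (SE), VGLL2 by 0.15 ± 0.13 (SE), VGLL1 by -0.04 ± 0.21 (SE) and VGLL4 by 0.02 ± 0.12 (SE), and the VGLL4 sign turned under cyclic loess and without vehicle replicate 1. The VGLL2 difference was 0.08 without vehicle replicate 1, that of VGLL3 was 0.10 without doxycycline replicate 3, and that of VGLL1 turned to 0.11 without vehicle replicate 4.

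Other genes described as YAP-TEAD targets had a median difference of 0.05 over 19 measured members, 12 above 0 and 7 below 0. The widest differences of the 19 ran in opposite directions. CCDC80, a secreted matrix protein, read 7.13, 6.40, 6.20 and 7.26 with vehicle and 7.75, 7.24, 7.81 and 8.13 with doxycycline. Only doxycycline replicate 2 lay within the vehicle range, just under vehicle replicate 4, and the difference was 0.98 ± 0.25 (SE, limma adjusted p = 0.987). NT5E, the ecto-enzyme CD73, read 9.15, 5.38, 4.82 and 6.08 with vehicle and 5.05, 4.61, 4.68 and 6.33 with doxycycline. Its difference of -1.19 ± 0.74 (SE) became -0.26 without vehicle replicate 1, the array with the highest value.

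Relatives and receptors of CCN1 had differences between -0.18 and 0.29. The other 4 CCN genes lay between 0.05 and 0.13 above 0, and without vehicle replicate 1 only 2 of the 4 were above 0. CCN3, a growth-restraining family member, differed by 0.13 ± 0.12 (SE), CCN4, a Wnt-induced member, by 0.05 ± 0.19 (SE), and CCN5, which lacks the C-terminal domain of the family, by 0.08 ± 0.18 (SE). CCN6 read 2.68, 2.70, 2.69 and 2.62 with vehicle and 2.71, 2.74, 2.99 and 2.70 with doxycycline. The CCN6 groups did not overlap, but their nearest values both read 2.70, and its mean was among the lowest 0.492% of gene means. Of 10 receptor genes through which CCN proteins act, mostly integrin chains, 8 lay above 0 and 2 below 0, with a median of 0.07. ITGA6, the integrin alpha 6 chain, differed by 0.29 ± 0.19 (SE), and by 0.43 without vehicle replicate 1, and ITGB3, the integrin beta 3 chain, by -0.18 ± 0.17 (SE).

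SRF and its cofactors of the MRTF family, which link actin assembly to transcription, share CCN1 as a target with YAP. Of 14 measured genes of that list, 9 lay below 0 and 5 above 0, with a median of -0.09. FHL2, a LIM-domain protein that binds SRF, read 5.47, 5.10, 4.83 and 4.81 with vehicle and 4.60, 4.66, 4.63 and 4.58 with doxycycline. All 4 doxycycline values of FHL2 lay below all 4 vehicle values, and its difference was -0.44 ± 0.15 (SE), or -0.30 without vehicle replicate 1 (limma adjusted p = 0.987). CALD1, the actin-binding protein caldesmon, read 7.22, 6.84, 7.09 and 7.32 with vehicle and 7.63, 7.29, 7.75 and 7.34 with doxycycline. It differed the other way, by 0.38 ± 0.15 (SE), with overlapping groups. EGR1, an immediate early gene named here after its values were seen, read 6.44, 7.23, 7.05 and 6.28 with vehicle and 6.39, 6.46, 6.48 and 6.08 with doxycycline. EGR1 was lower with doxycycline, as CCN1 was, by -0.40 ± 0.20 (SE), with overlapping groups. Its difference was -0.50 without vehicle replicate 1 and -0.24 without vehicle replicate 2. Vehicle replicates 2 and 3 were the high EGR1 arrays, whereas the highest CCN1 array was vehicle replicate 1. Whether the 2 genes share a pattern was not tested. FOS, the immediate early gene of the AP-1 complex, also named after its values were seen, differed by -0.04 ± 0.12 (SE), or by 0.04 without vehicle replicate 2.

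Genes whose promoters carry the TEAD core were read across the table as well. Of 14129 tested genes with a promoter window, 2202 held at least 1 core in a window, and their median difference was 0.02, as it was for the 11927 without a core (0.02). The groups did not overlap for 2.77% of the genes with a core and for 2.46% of those without. The 21 tested genes with 3 or more cores in a window, CCN2 among them, had a median difference of 0.06, and 9 of the 21 lay below 0. No such gene passed at an adjusted p under 0.05 (limma), and 0 did so at an unadjusted p under 0.05, against 3.78% of all tested genes with a window. Nothing is read from a count of 0 among 21 genes. That unadjusted share was 4.04% for genes with at least 1 core and 3.73% for those without.

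The genes whose pattern over the 8 arrays was most like that of CCN1 were ranked by Pearson's r among 8745 genes at or above the median level. The highest were CDK6, a cell-cycle kinase (r = 0.954), NDUFAF3, an assembly factor of respiratory complex I (0.935), RWDD4 (0.880), COL6A1, a collagen VI chain (0.875), and SLC3A2, the heavy chain of amino acid transporters (0.874). CDK6 read 5.998, 5.77, 5.85 and 5.82 with vehicle and 5.48, 5.53, 5.62 and 5.53 with doxycycline. Its groups did not overlap, and it was lower by the fitted value of -0.32, a smaller span than that of CCN1. Ranking by likeness to CCN1, a gene chosen by this contrast, favours genes that differ between the groups. Nothing is therefore read from the CDK6 difference. The lowest r were those of SSTR4, a somatostatin receptor (-0.957), POLR3F, an RNA polymerase III subunit (-0.948), and LRP5, a Wnt co-receptor (-0.939). Without vehicle replicate 1 the 5 highest were MAP3K11, CXCL3, TBC1D16, SLC48A1 and ZSCAN10 (r from 0.957 to 0.981 over 7 arrays), and 0 of them were among the first 5. The first 5 still had an r of 0.929 (CDK6), 0.932 (NDUFAF3), 0.813 (RWDD4), 0.923 (COL6A1) and 0.801 (SLC3A2) over those 7 arrays. The 7 other genes of the pathway set had an r with CCN1 between -0.395 (LATS2) and 0.320 (TEAD1) over the 8 arrays. Without vehicle replicate 1 the sign of 5 of these 7 r turned: TEAD1 stood at -0.650, WWTR1 went from 0.316 to -0.226, LATS2 to 0.0834, ANKRD1 from -0.349 to 0.204 and CCN2 from -0.0157 to 0.134. These coefficients rank genes, share the same 8 arrays and carry no test.

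**Figure D2:**
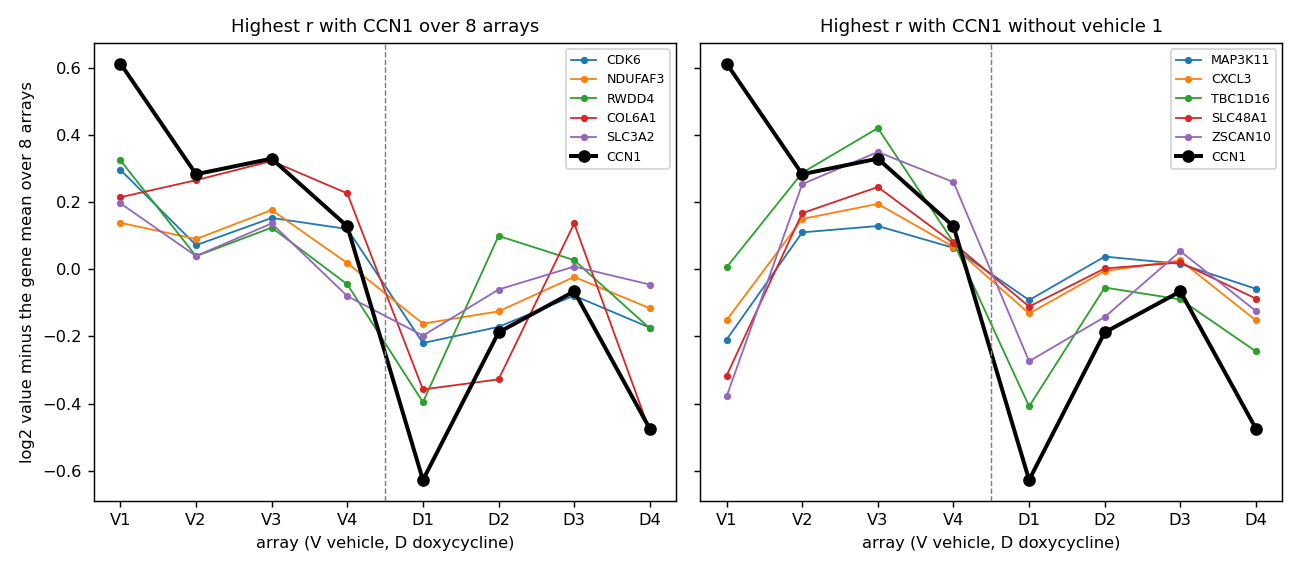
Log2 value minus the gene's mean over the 8 arrays for CCN1 (black) and the 5 genes most like it over 8 arrays (left) or without vehicle replicate 1 (right); V1 to V4 are vehicle and D1 to D4 doxycycline arrays, the lines only join values of 1 gene, and the order of replicates has no meaning. In the right panel the genes other than CCN1 drop away from it at V1.

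Markers of the cell types in the nodes were read beside these values. Melanocyte lineage markers, which the tumour line could carry, were measured for 8 of 9 genes, 2 of them (TYR and TYRP1) below the median gene level in both groups. Of the 8, 7 lay above 0, or 6 without vehicle replicate 1. Their mean level per array lay between 5.17 and 5.46 with vehicle and between 5.46 and 5.49 with doxycycline. MLANA, a melanosome protein named after its values were seen, differed by 0.43 ± 0.25 (SE), or by 0.13 without vehicle replicate 1. Fibroblast markers (6 of 7 measured, 4 above 0) lay between 6.13 and 6.22 with vehicle and between 6.22 and 6.34 with doxycycline, and endothelial markers (8 of 8 measured, 6 above 0) between 5.16 and 5.35 and between 5.26 and 5.41. Lymphocyte markers (7 of 8 measured, 4 above 0) lay between 5.17 and 5.49 with vehicle and between 5.34 and 5.42 with doxycycline, and macrophage markers (6 of 6 measured, 3 above 0) between 5.54 and 5.68 and between 5.54 and 5.73. Adipocyte markers separated the groups, with mean levels between 4.99 and 5.30 with vehicle and between 5.39 and 5.68 with doxycycline, and 5 of 6 above 0. Skeletal muscle markers overlapped, at 6.05 to 6.72 with vehicle and 6.32 to 7.08 with doxycycline, but all 8 measured of 9 had a difference above 0. No marker passed at an adjusted p under 0.05 (limma), and 9 of the 49 measured (18.4%) did so at an unadjusted p under 0.05, against 3.80% of all genes. All 9 were higher with doxycycline, where 2.49% of all genes were at that p. Skeletal muscle and adipocyte markers each gave 3 of these 9. The marker lists were chosen with earlier results of these data known, so nothing is read from the share. Without vehicle replicate 1 the markers at an unadjusted p under 0.05 (limma) were 3 adipocyte, 1 skeletal muscle, 1 fibroblast and 1 endothelial. The share of all genes was then 4.91%. The part of these cell types in the CCN1 and CCDC80 values was not tested.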

How the data were processed

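Total RNA of 8 metastatic nodes was hybridised, 1 array per node, and the authors deposited log2 expression values made with RMA, per the submitters' processing notes. Neither the RMA version nor the image analysis is given in the sources used here, and probe-level signal over background was not assessed. Of 18565 probe sets, 17509 carried 1 gene symbol, 0 several and 1056 none. All 17509 gene identifiers matched RefSeq genes, and the brightest probe set per gene left 17491 genes. Groups came from the sample labels. limma 3.58.1 (lmFit, eBayes) in R 4.3.3 fitted doxycycline minus vehicle over all genes in a two-sided test with no covariate; p-values were adjusted by Benjamini-Hochberg and the threshold was 0.05. The fit was tested on simulated data. Precision is limited by the number of arrays (4 in each group), and the median SE of a difference was 0.15. How far human probes read mouse RNA was not measured.

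The genes and lists were chosen with earlier results of these data known. Named genes were all measured genes of the set. In each of the 6 lists they were the gene with the smallest p in each direction and every gene with separate groups, and in lists of up to 7 genes every measured one. The 5 genes with the highest and 3 with the lowest r with CCN1 were also named. EGR1, MRTFA, FOS, MLANA, TYR and TYRP1 were chosen after their values were seen. Promoter windows were read from the RefSeq table with Python 3.11.15 (pandas 2.3.3), and plots were drawn with matplotlib 3.10.9. The alternatives tried were a block for the replicate number, 3 normalisations, 2 filters on dim genes, averaged probe sets, a trended robust variance, array weights, omission of single arrays, an adjusted p threshold of 0.1 and, for likeness to CCN1, Spearman's rho.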

Additional observations from a re-analysis of the deposited data

Results flagged for a closer look

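For the 8 measured genes in each of the 2 groups, 16 sets of 4 arrays, the array farthest out was set against its nearest neighbour. Chance puts about 1 in 20 such sets past the 95% limit of Dixon's ratio. ANKRD1 in doxycycline replicate 2 read 3.72, next to 3.36, with a ratio of 0.839. LATS2 in doxycycline replicate 3 read 6.74, next to 6.25, with a ratio of 0.877. The 2 values come from different arrays.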

How the results depend on the processing

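Over 18 alternatives, 0 genes passed at an adjusted p under 0.05, or under 0.1 for that alternative, in every case, and so did 0 genes of the 6 lists. The CCN1 difference stayed below 0 in all 17 of its alternatives, from -0.71 under cyclic loess to -0.61 with array weights, and from -0.77 to -0.58 with 1 array left out. CCN1 was chosen for its difference in these same arrays, so nothing is read from its constant sign. The lowest limma adjusted p of CCN1 was 0.808. Whether the same replicate numbers in both groups pair the arrays could not be told from the values. Deviations of same-numbered arrays correlated at -0.05, 0.15, 0.09 and 0.00 across genes, and 2 of 4 vehicle arrays correlated best with their own number. With the replicate block 0 genes passed, 734 did so at an unadjusted p under 0.05 in place of 665, and the CCN1 difference kept its value with an SE of 0.16. The median over the 8 genes moved between -0.03 and 0.05 with 1 array left out, so its sign depends on the arrays used. List genes at an unadjusted p under 0.05 (limma) numbered 3 of 66 (4.55%, all genes 3.80%), but 6 (9.09%) under cyclic loess (all genes 3.78%) and with array weights (4.53%), 8 (12.1%) without vehicle replicate 1 (4.91%) or 3 (5.71%), and 5 (7.58%) without vehicle replicate 2 (4.90%) or doxycycline replicate 2 (3.10%). They numbered 2 (3.03%) without doxycycline replicate 1 (all genes 3.28%) or doxycycline replicate 3 (3.02%). The other shares lay between 4.55% and 6.06%, where those of all genes lay between 3.28% and 4.37%. Of the 5 genes most like CCN1, 2 were among the first 5 under Spearman's rho and 0 without vehicle replicate 1. The filters on dim genes removed 2 of the 8, ANKRD1 and YAP1. WWTR1 changed sign in 5 of 17 alternatives.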
